A study of Drosophila melanogaster with 9 samples.

Results

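Larval peripheral hemocytes (PH) were compared with the lymph gland (LG) of *Drosophila melanogaster* by RNA sequencing, with 3 PH and 3 LG samples. All 6 samples came from w1118 animals at the end of larval life (wandering larvae of the third instar), and the labels give no other allele, transgene or agent in either group. PH were taken by opening the dorsal cuticle in buffer, so they hold the cells released from the larva, while LG samples are the dissected anterior lobes of the gland. Each replicate pooled larvae, and the replicates were prepared independently. Adult hemocytes of the same series do not enter any comparison here. RPKM are reads scaled to the length of a gene's exons and to a size factor of the library. Of the 17490 genes with deposited values, 7088 had an RPKM above 1 in at least 3 of these 6 samples. These 7088 genes are compared. The gene just inside this limit was *baz*, whose RPKM was 1.001 in the third highest sample, and the gene just outside was *CR45530*, with 0.997 RPKM.

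Both tissues make blood cells, but by different routes. Peripheral hemocytes descend from cells born in the head mesoderm of the embryo, and most are plasmatocytes, the macrophages of the fly, with some crystal cells, which carry the prophenoloxidases used in melanization. The lymph gland forms along the dorsal vessel, next to the pericardial cells and the ring gland, and its anterior lobes hold undifferentiated progenitors kept by JAK/STAT, Hedgehog and Wingless signals, a small posterior signaling center (PSC) that expresses *kn* (*collier*) and *Antp*, and an outer zone of maturing plasmatocytes and crystal cells.

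Reads recovered from the deposited values numbered 4999411 to 6534561 in a PH sample and 2745573 to 6779942 in an LG sample. Of these reads, 43.9 to 61.5% lay on rRNA genes. The minimum of mapped reads per sample stated in the paper is above all of these numbers. Recovered reads are therefore not the depth that the paper reports, and the reason for the difference was not tested. The limits of 3 reads used below are in recovered reads. On log2(RPKM + 1) over the 7088 genes, Pearson's r was 0.956 to 0.972 between PH samples, 0.891 to 0.951 between LG samples and 0.790 to 0.858 between a PH and an LG sample (these correlations run over genes, not over replicates). LG replicate 2 was the shallowest library by recovered reads and the LG sample closest to each PH sample. LG replicate 1 stood apart in genes of the ring gland, the endocrine organ beside the lymph gland: *spok*, which acts in ecdysone synthesis, had 0.0890, 0 and 0 RPKM in PH, against 120.3, 1.31 and 0.0627 RPKM in LG, *sad*, an ecdysone hydroxylase, had 0.0887, 0.410 and 0.293 RPKM in PH, against 53.8, 0.931 and 0.874 RPKM in LG, and *jhamt*, a juvenile hormone methyltransferase, had 0.147, 0 and 0 RPKM in PH, against 31.5, 0 and 0 RPKM in LG. The summed RPKM of the 14 ring gland markers found was 43.2, 51.7 and 54.1 in PH, against 474, 42.3 and 38.1 in LG. Because these are bulk samples, fewer cells of a type and less RNA per cell cannot be told apart in any of the differences below. Per-sample values are given in the order of replicates 1, 2 and 3.

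The 2 sites shared most of their expressed genes. With RPKM above 1 in all 3 samples as the limit, 5750 genes were expressed in both PH and LG, 532 in PH and not in LG, and 470 in LG and not in PH. PH and LG were then compared gene by gene with limma on log2(RPKM + 1), and a gene was called at a Benjamini-Hochberg adjusted p below 0.01 and a fold change above 2. By this rule 1007 of the 7088 genes (14.2%) differed: 541 (7.63%) were higher and 466 (6.57%) lower in PH. Counts of called genes in the lists below are to be read against these shares. Their median log2 fold change, always given as PH minus LG, was 1.66 for the higher and -1.63 for the lower genes, against 0.01 over all genes tested. A change beyond 3 on the log2 scale, which is 8-fold, was found for 64 higher and 39 lower genes. In all 1007 called genes the PH and LG samples did not overlap, whereas over all 7088 genes every PH sample lay above every LG sample in 24.7% and below in 23.1%. The balance of the directions depended on the scaling: with the values scaled to the total recovered reads, 320 genes were higher and 733 lower and the median over all genes was -0.30, and with reads outside rRNA genes 387 were higher and 623 lower with a median of -0.16. No called gene changed its sign under any setting tried. Leaving out a sample, changing the pseudocount or weighting the samples could not reverse a sign, because the groups of called genes did not overlap. Among the 541 genes higher in PH, LG replicate 2 was the highest LG sample in 55.8%, against 38.4% of the genes not called, and among the 466 lower genes it was the lowest LG sample in 52.4%, against 41.1%.

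**Figure D1:**
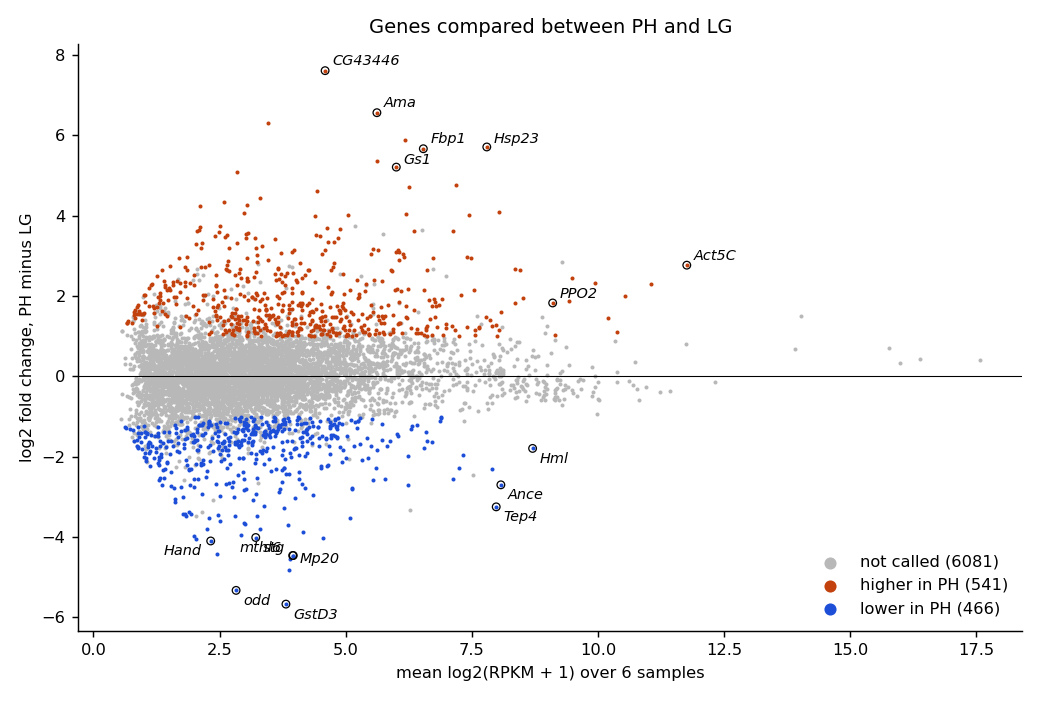
Log2 fold change of PH against LG (vertical axis, positive is higher in PH) against the mean log2(RPKM + 1) over the 6 samples (horizontal axis), with 1 point per gene for 7088 genes. The 541 genes called higher are orange, the 466 called lower are blue and the rest are grey; *CG43446* at 7.61 and *GstD3* at -5.68 mark the ends of the range.

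Several transcription factors and receptors known from the lymph gland were at low levels or had no reads in PH. *odd*, which encodes a zinc finger transcription factor of the primary lobes and of pericardial cells, had 0.134, 0.232 and 0 RPKM in PH, against 44.1, 42.0 and 46.3 RPKM in LG (log2 fold change -5.33, SE 0.19, adjusted p = 1.7e-05, from limma). Its LG values lie within a narrow range and no PH sample reached 1 RPKM. *Hand*, a basic helix-loop-helix factor of the lymph gland and the heart, had 0, 0.764 and 0 RPKM in PH, against 26.3, 12.5 and 23.3 RPKM in LG (-4.10 on the log2 scale). *mthl6*, a receptor gene of the Methuselah family, had 2.13, 2.58 and 2.24 RPKM in PH, against 68.4, 61.1 and 90.0 RPKM in LG (log2 fold change -4.47, SE 0.19, adjusted p = 2.2e-05), and its relative *mthl7* had no reads in PH, against 19.2, 14.1 and 14.5 RPKM in LG. Taking 3 reads in the shallowest PH library as the limit, *mthl7* was at least 30.1-fold lower in PH. The call of *mthl6* held in all 6 fits with 1 sample left out. *odd*, *Hand* and *mthl7* passed the limit of 3 samples through LG alone, so only the 3 fits without a PH sample could test them. Their calls held there, but these fits dropped only PH values at or near 0 and kept every LG sample.

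Among PSC genes, 7 of 12 tested members fell and 1 rose, with a median log2 fold change of -1.80. *kn*, the factor that defines this center, had 0.179, 0.248 and 0.0592 RPKM in PH, against 6.03, 8.64 and 6.48 RPKM in LG (log2 fold change -2.78, SE 0.25, adjusted p = 2.7e-04), and *Antp*, the Hox gene expressed there, had 0.0419, 0.290 and 0.104 RPKM in PH, against 3.15, 3.34 and 2.90 RPKM in LG (-1.86). In neither gene did any PH sample come near the lowest LG sample. *Myc*, a growth regulator, had 3.91, 3.94 and 2.41 RPKM in PH, against 45.9, 34.9 and 45.2 RPKM in LG (log2 fold change -3.29, SE 0.22, adjusted p = 1.0e-04). *dally* and *dlp*, glypicans that shape the range of secreted signals, had log2 fold changes of -2.31 and -1.76, and the cytoskeletal linkers *tau* and *shot* had -2.002 and -1.84. The call of *dlp* held in 3 of the 6 fits with 1 sample left out, and those of *Myc*, *dally* and *shot* in all 6. Those of *kn*, *Antp* and *tau* held in the 3 such fits that could test them, each without a PH sample. These 3 genes passed the limit through LG alone, so these fits dropped only low PH values and kept every LG sample. The member that rose was *mth*, a G protein-coupled receptor, with 24.1, 21.4 and 24.5 RPKM in PH, against 5.401, 10.6 and 10.6 RPKM in LG, and its call held in 2 of the 6 such fits. *Ser*, a Notch ligand of the center, passed 1 RPKM in too few samples to be tested, with 0.0809, 0.0623 and 0.267 RPKM in PH, against 3.97, 0.396 and 2.09 RPKM in LG, and *hh*, the Hedgehog ligand, stayed at or below 0.332 RPKM in all 6 samples. A gene detected in LG and not in PH fails the limit of 3 samples once an LG sample is dropped. Without an LG sample 9 PSC genes were therefore tested, of which 4, 4 and 3 were lower without LG replicate 1, 2 and 3.

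Of 19 tested genes linked to lymph gland progenitors, 6 fell and 1 rose, and their median was -0.42. *Tep4*, a thioester protein used as a progenitor marker, had 70.05, 90.6 and 83.5 RPKM in PH, against 815, 839 and 695 RPKM in LG (log2 fold change -3.25, SE 0.16, adjusted p = 3.5e-05). *Ance*, an angiotensin-converting enzyme homolog, had 97.4, 94.9 and 124 RPKM in PH, against 841, 983 and 394 RPKM in LG (log2 fold change -2.71, SE 0.32, adjusted p = 9.1e-04), with LG replicate 3 at less than the other LG samples but well above PH. The cytokine receptor *dome*, another marker of progenitors, had 3.07, 2.68 and 1.598 RPKM in PH, against 8.52, 6.09 and 5.995 RPKM in LG; its log2 fold change of -1.20 did not pass (adjusted p = 0.01001 from limma). *Stat92E*, the transcription factor of the JAK/STAT pathway, fell by 1.48 on the log2 scale, and *et*, a receptor that dampens this pathway, had 24.3, 20.9 and 19.9 RPKM in PH, against 131, 117 and 153 RPKM in LG (log2 fold change -2.56, SE 0.16, adjusted p = 8.0e-05). *E2f1*, a factor driving entry into S phase, had 10.02, 9.72 and 4.75 RPKM in PH, against 26.8, 38.5 and 23.8 RPKM in LG and held its call in 4 of the 6 fits with 1 sample left out. *mir-998*, a microRNA gene inside *E2f1* on the same strand, also fell, and reads of the 2 cannot be told apart. The member that rose was *ci*, the transcription factor of Hedgehog signaling, with 35.1, 32.9 and 26.1 RPKM in PH, against 4.98, 9.64 and 10.9 RPKM in LG (log2 fold change 1.82, SE 0.28, adjusted p = 0.0023; held in 4 of the 6 fits). *ptc*, the Hedgehog receptor, had 2.36, 2.17 and 2.02 RPKM in PH, against 0.152, 1.85 and 0.602 RPKM in LG, and did not pass (adjusted p = 0.1 from limma).

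**Figure D2:**
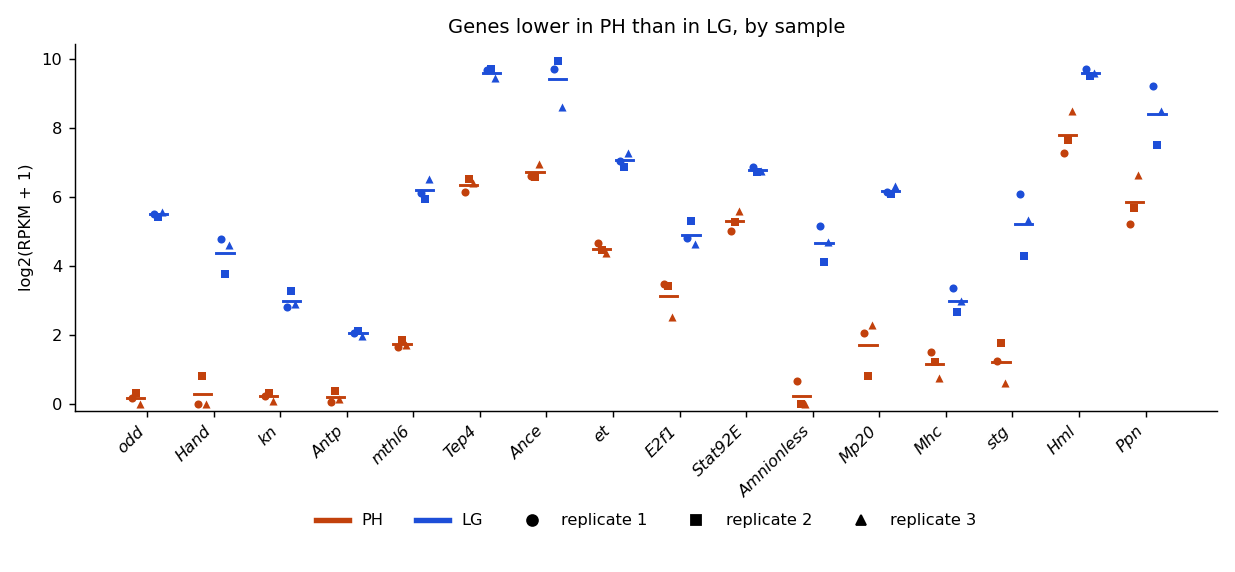
Log2(RPKM + 1) of 16 genes that were lower in PH, with PH left of LG for each gene, 1 marker per replicate and a line at the group mean. In *odd*, *Hand*, *kn*, *Antp* and *Amnionless* the PH samples lie near 0, while *Hml* and *Stat92E* are expressed in both groups.

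Among 17 tested hemocyte transcription factors, 6 fell and 1 rose. Besides *odd*, *Hand*, *kn* and *Stat92E*, the basic helix-loop-helix factor *crp* fell (-1.23, held in 4 of the 6 fits), as did the forkhead factor *jumu* (-1.20, held in 1 of the 6 fits). *foxo*, the forkhead effector of insulin signaling, was the one that rose, with 21.3, 19.2 and 14.7 RPKM in PH, against 5.64, 3.60 and 6.03 RPKM in LG (log2 fold change 1.68, SE 0.24, adjusted p = 0.0017; held in 4 of the 6 fits). Without an LG sample 13 of these factors were tested, of which 2, 4 and 1 were lower without LG replicate 1, 2 and 3. Factors that mark the whole blood lineage did not pass the test: *srp*, the GATA factor of all hemocytes, had 111, 91.0 and 62.9 RPKM in PH, against 71.3, 150.5 and 78.0 RPKM in LG, where LG replicate 2 was the highest and both groups overlapped, and its cofactor *ush* had 53.3, 42.3 and 28.7 RPKM in PH, against 21.5, 35.8 and 20.2 RPKM in LG. *zfh1* had 93.0, 112 and 96.1 RPKM in PH, against 66.4, 91.7 and 59.0 RPKM in LG, with every PH sample above every LG sample (log2 fold change 0.49, adjusted p = 0.086 from limma). The crystal cell factor *lz*, a Runx protein, had 2.45, 1.36 and 2.92 RPKM in PH, against 6.43, 1.62 and 1.50030 RPKM in LG, and only LG replicate 1 stood above the rest. Of the 14 Hox genes and cofactors found, 4 could be tested, of which *Antp* and *hth*, a Hox cofactor, fell; *hth* had 0.412, 0.107 and 0.329 RPKM in PH, against 6.67, 4.82 and 5.68 RPKM in LG. Without an LG sample 1 of the 4 could be tested, and it was neither *Antp* nor *hth*, so these fits could not test their calls. *Ubx*, *Scr*, *Dfd* and *Abd-B* stayed at or below 0.440 RPKM in all 6 samples.

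Plasmatocyte markers were abundant in both groups, with a summed RPKM of 10766 to 13075 in PH and 7067 to 7985 in LG. Of 21 tested, 3 rose and 3 fell, and the median log2 fold change was 0.50 (0.12 to 0.50 across the scalings). *crq*, a CD36-family receptor for apoptotic cells, had 445, 496 and 475 RPKM in PH, against 29.2, 109 and 65.3 RPKM in LG (log2 fold change 2.97, SE 0.40, adjusted p = 0.0015). *Glt*, which encodes the secreted glutactin, had 2065, 2168 and 2379.5 RPKM in PH, against 275, 624 and 501 RPKM in LG (log2 fold change 2.32, SE 0.28, adjusted p = 0.0010), and *vsg*, a sialomucin, had 1393, 1344 and 1185 RPKM in PH, against 203, 656 and 341 RPKM in LG (log2 fold change 1.87, SE 0.37, adjusted p = 0.0071; held in 2 of the 6 fits with 1 sample left out). *crq* overlaps *ex* on the opposite strand over 448 bp; *ex*, a cortical protein of the Hippo pathway, moved the other way, with 3.82, 4.30 and 2.34 RPKM in PH, against 10.9, 11.8 and 9.29 RPKM in LG. The markers that fell were *Hml*, *Ppn* and *Sr-CIII*. *Hml* (Hemolectin, a clotting protein used to label differentiated plasmatocytes) had 155, 199 and 358 RPKM in PH, against 834, 729 and 772 RPKM in LG (log2 fold change -1.80, SE 0.28, adjusted p = 0.0027; held in 4 of the 6 fits). *Ppn*, a matrix protein of the basement membrane, had 36.2, 49.9 and 99.0 RPKM in PH, against 590.0, 182 and 357 RPKM in LG, and *Sr-CIII*, a scavenger receptor, had 0.135, 1.40 and 0.667 RPKM in PH, against 31.3, 5.37 and 28.7 RPKM in LG; their calls held in 2 of the 6 and 1 of the 6 fits, and LG replicate 2 was the lowest LG sample in both. *NimC1*, the phagocytosis receptor recognized by the P1 antibody, had 70.8, 45.7 and 236 RPKM in PH, against 20.6, 26.4 and 10.9 RPKM in LG, and its log2 fold change of 2.27 did not pass, with PH replicate 3 far above the other PH samples (adjusted p = 0.018 from limma). *Pxn*, *eater*, *Col4a1*, *vkg* and *He* did not pass, with log2 fold changes between 0.04 (*He*) and 0.55 (*eater*). Without LG replicate 2, 5 plasmatocyte markers were higher and 4 lower. The lower calls were all lost without LG replicate 3 or PH replicate 2, and without LG replicate 1 or PH replicate 1 the lower count was 1.

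Of 10 tested crystal cell markers, 2 rose and 2 fell. *PPO2*, a prophenoloxidase of crystal cells, had 1021, 842 and 1282 RPKM in PH, against 518, 226 and 211 RPKM in LG (log2 fold change 1.82, SE 0.34, adjusted p = 0.0055), and *PPO1*, another, had 821, 663 and 900.3 RPKM in PH, against 496, 227 and 200.4 RPKM in LG, with a log2 fold change of 1.48 that missed the threshold (adjusted p = 0.011 from limma). In both genes LG replicate 1 was the highest LG sample and still below every PH sample. *CG10467* also rose (1.31), *N*, the Notch receptor, fell (-1.09) and *Hml*, which this list shares, fell as above. The calls of *PPO2*, *CG10467* and *N* each held in 2 of the 6 fits with 1 sample left out, and without any 1 of the PH replicates or without LG replicate 3 the higher calls of this list were lost. *peb* (*hindsight*), a zinc finger factor of crystal cells, had 0.803, 0.732 and 0.663 RPKM in PH, against 6.37, 2.57 and 2.04 RPKM in LG, with a log2 fold change of -1.31 that did not pass. Of 4 tested lamellocyte markers only *mys*, a β-integrin that other hemocytes express as well, rose (1.01, held in 1 of the 6 fits). The defining lamellocyte genes *PPO3*, *atilla* and *ItgaPS4* did not reach 1 RPKM in 3 samples: *PPO3* had 1.34, 0.897 and 1.40 RPKM in PH, against 0.150, 0.148 and 0.0497 RPKM in LG, and *atilla* reached 4.36 RPKM in PH replicate 3 and stayed at or below 1.19 RPKM elsewhere.

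Phagocytosis receptors divided between the sites, with 5 of 22 tested higher and 5 lower. *NimC2*, a Nimrod receptor, had 17.4, 13.5 and 13.5 RPKM in PH, against 0.238, 0.234 and 0.118 RPKM in LG (log2 fold change 3.71, SE 0.22, adjusted p = 6.5e-05), and *pes*, a CD36-family receptor, had 35.9, 43.7 and 46.3 RPKM in PH, against 8.63, 15.3 and 10.9 RPKM in LG (1.80). *NimB3* and *Mcr*, a thioester protein, rose with calls that held in 2 of the 6 and 1 of the 6 fits. The secreted Nimrod proteins *NimB1* and *NimB5* were lower, with log2 fold changes of -1.48 and -1.17. *NimB5* held its call in 1 of the 6 fits and overlaps *He* by 78 bp on the opposite strand. *Tep1*, a thioester protein like *Tep4*, had 70.6, 82.1 and 86.1 RPKM in PH, against 290.0, 348 and 309 RPKM in LG (log2 fold change -1.97, SE 0.15, adjusted p = 1.3e-04). The median of the list was 0.03 and turned to -0.26 when scaled to total reads. Without a PH sample 2 members were higher and 3 lower, and without LG replicate 1 the counts were 3 and 3.

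Part of the cell cycle genes were lower in PH. Of 48 tested DNA replication genes, 9 fell and the other 39 did not pass, with a median of -0.93; of 56 tested mitosis genes, 15 fell and 41 did not pass, with a median of -1.01. *stg* (*string*), the Cdc25 phosphatase that starts mitosis, had 1.39, 2.43 and 0.509 RPKM in PH, against 66.6, 18.4 and 39.0 RPKM in LG (log2 fold change -4.02, SE 0.47, adjusted p = 8.6e-04), the largest change of either list. *RnrS*, the small subunit of ribonucleotide reductase, had 8.39, 13.0012 and 8.64 RPKM in PH, against 29.98, 28.2 and 39.1 RPKM in LG (log2 fold change -1.61, SE 0.22, adjusted p = 0.0015), and *geminin*, which limits the licensing of replication origins, had 19.3, 15.1 and 16.9 RPKM in PH, against 55.1, 33.6 and 46.1 RPKM in LG (log2 fold change -1.32, SE 0.21, adjusted p = 0.0028; held in 3 of the 6 fits). *PCNA*, the sliding clamp, had 19.99, 23.8 and 28.6 RPKM in PH, against 96.0, 54.9 and 103 RPKM in LG (-1.73; held in 3 of the 6 fits). In mitosis, the condensin subunit *SMC2* had 3.71, 5.07 and 5.14 RPKM in PH, against 22.4, 15.9 and 20.1 RPKM in LG (log2 fold change -1.86, SE 0.21, adjusted p = 7.1e-04), the cyclin *CycB3* had a log2 fold change of -1.70, and *Spc105R*, a kinetochore scaffold, had -2.29 with a call that held in 2 of the 6 fits. LG replicate 2 had the lowest LG level of *stg*, *PCNA*, *SMC2* and *Spc105R*. The summed level of the mitosis genes was 304 to 327 RPKM in PH, against 737, 432 and 675 RPKM in LG, and that of the replication genes was 206 to 234 RPKM in PH, against 569, 400.3 and 589 RPKM in LG. Without LG replicate 2, 16 replication and 24 mitosis genes were lower, and with any other sample left out each count was 3 to 6. Scaling to total reads, where the median of all genes was -0.30, gave 20 replication and 19 mitosis genes lower. Voom on the recovered reads gave 18 and 20, and array weights gave 26 and 29. Other settings gave fewer: 5 and 7 with no filter. With a pseudocount of 5 RPKM, or with the replicate number as a block, the counts were 7 and 8. *CycA* and *Cdk1* did not pass, with -0.48 and -0.30. The replication-dependent histones did not follow: none of the 111 tested was called by limma or by voom, 14 had an unadjusted p under 0.05 in the higher and 1 in the lower direction, and the median was 0.11 (-0.26 when scaled to total reads). These histone genes are near-identical copies, so the reads of single members are uncertain.

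Most tested muscle genes and some genes of heart and pericardial cells, tissues beside the lymph gland, were lower in PH. Of 9 tested heart and pericardial markers, 5 fell, *Ama* rose, and *Mef2*, *pnr* and *Tl* did not pass. *Amnionless*, which with cubilin forms the protein uptake receptor of nephrocytes, had 0.582, 0 and 0 RPKM in PH, against 34.6, 16.4 and 25.0 RPKM in LG (log2 fold change -4.44, SE 0.32, adjusted p = 1.3e-04), *Cubn* had 0.624, 0.432 and 0.366 RPKM in PH, against 12.2, 6.05 and 8.70 RPKM in LG (-2.72) and *CG42255* (*Cubn2*) had 0.0983, 0 and 0 RPKM in PH, against 13.5, 4.30 and 8.58 RPKM in LG (-3.13). *Hand* and the T-box gene *H15* were the others, and *H15* had no reads in PH and was at least 5.85-fold lower there against the limit of 3 reads, with a call that was lost in each fit that left out a PH sample. Without an LG sample 4 of the list were tested. The genes that fell were not among them, because they no longer passed the limit of 3 samples, so these fits could not test their calls. *Amnionless* overlaps *CG3625* on the same strand, and *CG3625* had 48.3, 30.6 and 30.5 RPKM in PH, against 12.6, 21.4 and 17.1 RPKM in LG and was not called. The summed level of the 24 markers found was 512 to 569 RPKM in PH and 119 to 145 RPKM in LG, most of it in PH from *Ama*, which is described below. Without *Ama* the direction turned, with a summed level of 48.7 to 71.3 RPKM in PH and 104 to 144 RPKM in LG. The cardiac genes *Doc2*, *Doc3*, *lbe* and *Him* are listed at 0 in all 6 samples, and *tin*, the cardiac homeobox gene, had 0, 0 and 0 RPKM in PH, against 0, 1.39 and 0.333 RPKM in LG. The pericardial matrix gene *prc* stayed at or below 0.375 RPKM.

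Of 20 tested muscle genes, 17 fell, with a median of -1.84 and a summed level of 86.4 to 129 RPKM in PH and 499.8 to 628 RPKM in LG. *Mp20*, a calponin-like muscle protein, had 3.15, 0.767 and 3.84 RPKM in PH, against 69.5, 66.8 and 79.2 RPKM in LG (log2 fold change -4.47, SE 0.36, adjusted p = 1.9e-04), *TpnC73F*, a troponin C, had 10.2, 4.29 and 15.7 RPKM in PH, against 85.8, 146 and 119.9 RPKM in LG (-3.53), *Mlc2*, the regulatory myosin light chain, had 4.47, 4.21 and 12.7 RPKM in PH, against 45.3, 58.0 and 67.8 RPKM in LG (-2.97) and *Mhc*, the myosin heavy chain, had 1.86, 1.32 and 0.688 RPKM in PH, against 9.34, 5.28 and 6.83 RPKM in LG (-1.83; held in 3 of the 6 fits). In each of these genes, as in all genes called lower, every LG sample lay above every PH sample. The tested members that did not pass went the other way: in *Zasp52* (1.44), *Act79B* (1.01) and *Tm1* (0.19) every PH sample lay above every LG sample, and 2 muscle genes were higher at an adjusted p below 0.05, with voom or with array weights. The genes *Act88F*, *TpnC4* and *TpnC41C* stayed at or below 0.592 RPKM. With 1 sample left out, 8 muscle genes were lower without LG replicate 3, 11 without LG replicate 1 or PH replicate 2, and 12 or 13 without another sample. The part of these tissues in the genes lower in PH was not tested.

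Among the genes with the largest rise in PH, 2 of the top 3 have no name beyond their number. *CG43446* had 381, 368 and 271 RPKM in PH, against 0, 2.66 and 0.405 RPKM in LG (log2 fold change 7.61, SE 0.43, adjusted p = 5.4e-05), and *CG5399* had 91.1, 118 and 84.2 RPKM in PH, against 0, 0.640 and 0.143 RPKM in LG (log2 fold change 6.31, SE 0.24, adjusted p = 1.7e-05). *Ama* (Amalgam), a secreted immunoglobulin-domain protein that binds Neurotactin, had 497, 471 and 463 RPKM in PH, against 0.689, 21.5 and 2.39 RPKM in LG (log2 fold change 6.56, SE 0.80, adjusted p = 9.8e-04). In these genes LG replicate 2 was the highest LG sample, still far below PH. *CR45593*, a noncoding RNA on the opposite strand of *Ama*, rose as well, with 4.25, 5.43 and 2.96 RPKM in PH, against 0, 0.704 and 0.0787 RPKM in LG, and reads of the 2 cannot be told apart without the strand. *Gs1*, glutamine synthetase 1, had 419, 419 and 334 RPKM in PH, against 2.24, 37.7 and 8.36 RPKM in LG (log2 fold change 5.21, SE 0.74, adjusted p = 0.0018), *Cyp12c1*, a mitochondrial cytochrome P450, had 42.3, 54.1 and 30.1 RPKM in PH, against 0, 0.526 and 0.235 RPKM in LG (5.09), and *Gal*, a lysosomal β-galactosidase, had 129, 105 and 86.3 RPKM in PH, against 1.501, 7.46 and 2.88 RPKM in LG (4.61). *Gs1* shares its span with *ND-15* on the same strand, and *ND-15* stayed between 10.5 and 17.4 RPKM in all 6 samples. *fat-spondin*, a secreted protein first described in fat body, had 406, 351 and 404 RPKM in PH, against 7.04, 26.0 and 14.2 RPKM in LG (log2 fold change 4.70, SE 0.38, adjusted p = 1.9e-04); *tef*, on its opposite strand, moved the other way, with 3.63, 2.35 and 2.76 RPKM in PH, against 9.97, 8.52 and 12.1 RPKM in LG. *betaTub60D*, the β-tubulin of differentiating mesoderm, had 922, 803 and 580.1 RPKM in PH, against 6.72, 127 and 20.7 RPKM in LG (4.77), and its call held in 2 of the 6 fits with 1 sample left out. *CG4950*, *CG10026*, *CG6018* and *CG30098* completed the rises, with log2 fold changes of 5.89, 4.43, 4.33 and 4.27. *CG12522*, named after its values were seen, had 17.7, 11.7 and 27.6 RPKM in PH. LG had no reads of it, and against the limit of 3 reads in the shallowest LG library its level in PH was at least 9.56-fold higher.

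**Figure D3:**
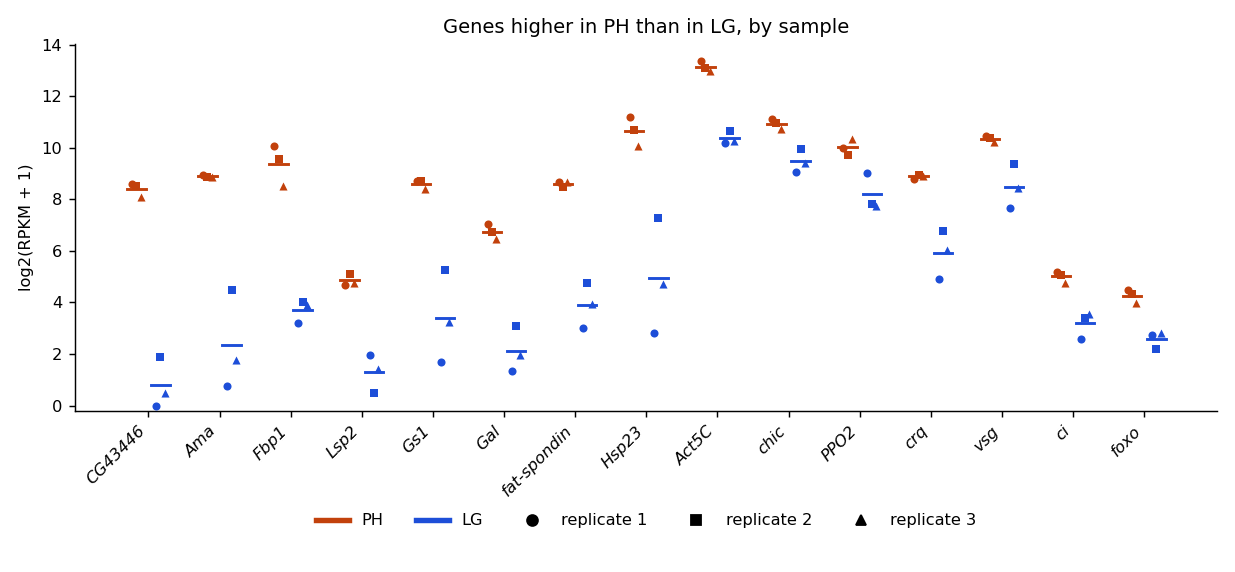
Log2(RPKM + 1) of 15 genes that were higher in PH, with PH left of LG for each gene, 1 marker per replicate and a line at the group mean. LG replicate 2 (blue square) is the highest LG sample in *CG43446*, *Ama*, *Gs1*, *Hsp23* and *crq*, but not in *Lsp2*, *PPO2* or *foxo*.

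Larval fat body genes rose in PH, 9 of 12 tested, with a median of 2.59. *Fbp1*, the receptor by which the fat body takes up storage proteins, had 1063, 752 and 361 RPKM in PH, against 8.12, 15.1 and 14.1 RPKM in LG (log2 fold change 5.67, SE 0.39, adjusted p = 1.2e-04), and PH replicate 3 was the lowest PH sample. *Lsp1beta*, *Lsp1gamma*, *Lsp1alpha* and *Lsp2*, subunits of the larval serum proteins that the fat body secretes, were all higher: *Lsp1beta* had 520.2, 500.0 and 446 RPKM in PH, against 61.1, 33.9 and 27.5 RPKM in LG (log2 fold change 3.63, SE 0.27, adjusted p = 1.3e-04) and *Lsp2* had 24.9, 33.5 and 25.9 RPKM in PH, against 2.91, 0.400 and 1.70 RPKM in LG (3.56). *Fbp2* (2.90), *Obp99b* (3.18), the lipophorin precursor *apolpp* (2.08) and the lipid droplet protein *Lsd-1* (1.58, held in 2 of the 6 fits) also rose. *bmm*, a triglyceride lipase, and *Desat1*, a desaturase, did not pass, nor did *Obp99a*, with 0.774, 0.596 and 0 RPKM in PH, against 4.395, 17.3 and 2.18 RPKM in LG. The summed level of the 13 genes found was 1679 to 2198 RPKM in PH and 175 to 267 RPKM in LG, where LG replicate 1 was the highest, and without *Fbp1* it was 1135.0 to 1318 RPKM in PH and 159.7 to 258 RPKM in LG. With any 1 sample left out, 8 or 9 of these genes were higher. The part of fat body RNA in the other genes higher in PH was not tested. Of 10 tested epidermis and cuticle genes, *Cpr49Ac*, a cuticle protein gene, rose, with 879, 679.7 and 572 RPKM in PH, against 16.3, 124 and 36.0 RPKM in LG (log2 fold change 4.02, SE 0.61, adjusted p = 0.0023; held in 2 of the 6 fits), *Gasp*, a chitin-binding protein gene, fell (-2.02, held in 0 of the 3 fits that could test it), and 8 did not pass. The summed level of the 22 genes found was 596 to 905 RPKM in PH and 45.5 to 310 RPKM in LG, and without *Cpr49Ac* it was 22.5 to 26.0 RPKM in PH and 29.2 to 274 RPKM in LG.

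**Figure D4:**
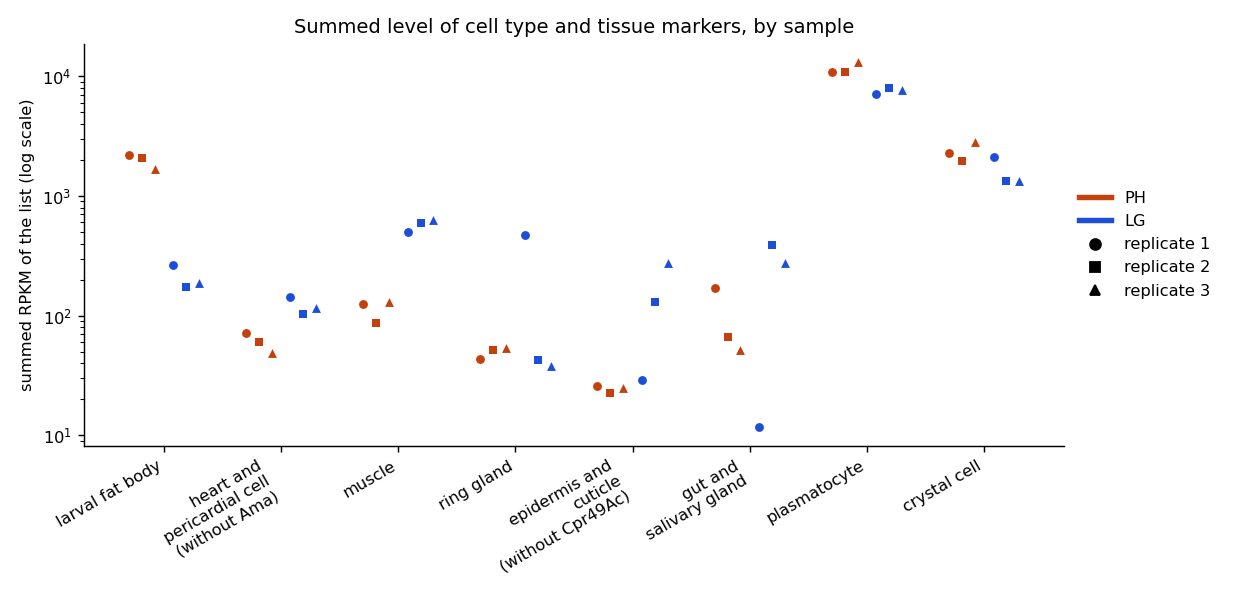
Summed RPKM of 8 marker lists in each sample on a log axis, with PH left of LG and 1 marker per replicate; the heart list is shown without *Ama* and the cuticle list without *Cpr49Ac*, and with these genes both sums are higher in PH (512 to 569 against 119 to 145 RPKM, and 596 to 905 against 45.5 to 310 RPKM). Fat body markers lie higher in PH and muscle and heart markers higher in LG, ring gland markers stand out in LG replicate 1 (474 RPKM), and gut and salivary gland markers vary within LG.

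Cytoskeletal genes gave the most abundant of the genes higher in PH: *Act5C*, *Act42A*, *alphaTub84B* and *chic* were among the 5 with the highest mean over the 6 samples. *Act5C*, the main cytoplasmic actin, had 10476, 8697 and 8122 RPKM in PH, against 1170.3, 1618 and 1241 RPKM in LG (log2 fold change 2.77, SE 0.20, adjusted p = 1.2e-04), and *Act42A*, the other cytoplasmic actin, had 4950.2, 4371 and 4854 RPKM in PH, against 684, 1282 and 1002 RPKM in LG (log2 fold change 2.30, SE 0.24, adjusted p = 4.8e-04). The actin genes are alike in sequence, and reads may have been shared among them. *alphaTub84B*, an α-tubulin, had 3150.5, 2797 and 2949.9 RPKM in PH, against 873, 669 and 698 RPKM in LG (1.997), and *chic*, profilin, had 2186, 1966 and 1688 RPKM in PH, against 535, 986 and 679 RPKM in LG (1.45; held in 3 of the 6 fits).

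In the list of actin and migration genes, 15 of 34 tested rose and the other 19 did not pass, with a median of 1.06 (0.69 to 1.06 across the scalings). The members that rose include actins (*Act5C*, *Act42A*), 5 of the Arp2/3 complex, which nucleates branched actin, and its activator *SCAR*. *Arp3* had 179, 178 and 233 RPKM in PH, against 39.8, 40.1 and 51.3 RPKM in LG (log2 fold change 2.14, SE 0.17, adjusted p = 1.9e-04), *SCAR* had 55.3, 59.2 and 49.9 RPKM in PH, against 13.8, 20.3 and 14.9 RPKM in LG (1.70), and *Arp2*, *Arpc1*, *Arpc4* and *Arpc5* changed by 1.08 to 1.49 on the log2 scale. Both subunits of the capping protein rose, *cpa* by 1.16 and *cpb* by 1.75, as did the bundling protein *Fim* (2.08), the myosin regulatory light chain *sqh* (1.78, held in 4 of the 6 fits), *twf* (1.64) and the GTPase *Rac2* (1.11, held in 2 of the 6 fits). *sn* (fascin), which bundles filopodial actin, had 372, 308 and 234 RPKM in PH, against 20.5, 193 and 34.6 RPKM in LG; LG replicate 2 was far above the other LG samples, and the log2 fold change of 2.50 did not pass (adjusted p = 0.028 from limma). *zip*, the heavy chain of non-muscle myosin, had 168, 161 and 119 RPKM in PH, against 132, 257 and 155 RPKM in LG and overlapped between the groups. The count of the list was 10 to 16 with 1 sample left out, and 9 when scaled to total reads. *Arpc1* and *twf* held their calls in 2 of the 6 and 3 of the 6 fits.

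Adhesion and matrix genes followed in part. Of 23 tested integrin and adhesion genes, 5 rose and 2 fell. *scb*, an α-integrin, had 18.3, 23.96 and 23.6 RPKM in PH, against 0.502, 3.03 and 0.973 RPKM in LG (log2 fold change 3.32, SE 0.36, adjusted p = 5.7e-04), the adaptor *Pax* (paxillin) had 80.9, 81.0 and 64.0 RPKM in PH, against 13.2, 28.9 and 16.3 RPKM in LG (1.96) and *stck* (PINCH), which links integrins to actin, had 102, 96.3 and 110.3 RPKM in PH, against 35.0, 37.7 and 32.5 RPKM in LG (1.53). Without PH replicate 2 the count of higher genes was 3. The adhesion molecules *ed* and *Nrg*, of the immunoglobulin family, fell: *ed* (Echinoid) had 2.25, 2.88 and 3.48 RPKM in PH, against 16.0, 12.7 and 16.1 RPKM in LG (log2 fold change -2.05, SE 0.21, adjusted p = 4.8e-04) and *Nrg* (Neuroglian) had 13.4, 12.4 and 14.1 RPKM in PH, against 39.2, 39.1 and 43.0 RPKM in LG (log2 fold change -1.54, SE 0.15, adjusted p = 3.8e-04). Among 18 tested matrix genes, 5 rose and 2 fell, the lower calls being lost without LG replicate 3 or PH replicate 1, and the metalloproteases were both higher, *Mmp1* with 14.1, 25.9 and 51.6 RPKM in PH, against 1.07, 1.77 and 1.35 RPKM in LG (log2 fold change 3.54, SE 0.41, adjusted p = 8.5e-04) and *Mmp2* with 74.2, 72.7 and 64.8 RPKM in PH, against 3.64, 14.7 and 6.43 RPKM in LG (log2 fold change 3.13, SE 0.39, adjusted p = 0.0011). PH replicate 3 had the most *Mmp1* among PH samples, and all were above LG. The collagen IV genes *Col4a1* and *vkg* did not pass, at 0.29 and 0.30, and of the laminins *LanB2* rose (1.15, held in 4 of the 6 fits) while *LanA* and *LanB1* did not pass, at 0.15 and 0.49. Septate junction genes, known from epithelia, rose in 6 of 18 tested and fell in 1, *Nrg*. *Lac* (Lachesin) had 33.3, 26.8 and 27.2 RPKM in PH, against 3.65, 2.91 and 2.57 RPKM in LG (log2 fold change 2.90, SE 0.19, adjusted p = 1.0e-04) and *crok*, a membrane protein needed for these junctions, had 33.8, 27.1 and 34.7 RPKM in PH, against 5.03, 5.11 and 8.79 RPKM in LG (log2 fold change 2.199, SE 0.24, adjusted p = 5.5e-04). *nrv2*, *cold*, *Mcr* and *kune* were the others, with calls that held in 1 or 2 of the 6 fits, so that 9 members were higher without LG replicate 2, 4 without LG replicate 1 and 2 without any of the rest.

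Genes of the lysosome and of iron and lipid handling rose more often than they fell. Of 29 tested lysosome and endocytosis genes, 6 rose and 1 fell. *Sap-r*, the saposin precursor, had 701, 700.0 and 742 RPKM in PH, against 137, 266 and 169 RPKM in LG (log2 fold change 1.95, SE 0.23, adjusted p = 9.1e-04), *Rab7*, the GTPase of late endosomes, had 190.3, 176 and 176 RPKM in PH, against 56.1, 87.0 and 54.8 RPKM in LG (1.47), and *spin*, a lysosomal transporter, had 37.9, 53.5 and 67.1 RPKM in PH, against 14.2, 15.9 and 13.6 RPKM in LG (1.76); *Gal* is given above, and *Clc*, the clathrin light chain, had a log2 fold change of 1.22. *Swim*, a secreted cathepsin-like protein, was the one that fell, with 1.45, 0.669 and 0.718 RPKM in PH, against 7.49, 6.537 and 9.33 RPKM in LG (-2.19). Without LG replicate 2, 11 members were higher. In the iron and redox list 6 of 23 rose: *Cat*, catalase, had a log2 fold change of 3.10, *Mvl* (Malvolio), a metal ion transporter of the NRAMP family, had 63.8, 75.5 and 75.3 RPKM in PH, against 7.57, 15.1 and 6.88 RPKM in LG (log2 fold change 2.81, SE 0.27, adjusted p = 3.8e-04), and *Tsf3*, *Tsf2*, *MtnA* and *Irp-1A* had calls that held in 1 to 3 of the 6 fits. *Tsf3* lies on the opposite strand of *CG15706*, which also rose. The median of this list was 0.17 and turned to -0.21 when scaled to total reads; *Fer1HCH* and *Fer2LCH*, the ferritin subunits, did not pass. Without PH replicate 2, PH replicate 3 or LG replicate 3 the count of higher genes was 2, and without PH replicate 1 it was 3. Of 20 tested lipid genes, 6 rose and 1 fell: *yip2*, a thiolase of β-oxidation, had 179.9, 194 and 275 RPKM in PH, against 49.2, 86.6 and 54.1 RPKM in LG (log2 fold change 1.78, SE 0.25, adjusted p = 0.0017), *Mtpalpha*, of the mitochondrial trifunctional protein, had a log2 fold change of 1.14 (held in 3 of the 6 fits), and *apolpp* and *Lsd-1* belong to the fat body list too. Without PH replicate 2 the count of higher lipid genes was 2, and without PH replicate 1 or 3 it was 3.

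Small heat shock genes were among the largest rises. *Hsp23* had 2358, 1631 and 1079.8 RPKM in PH, against 6.07, 154 and 25.5 RPKM in LG (log2 fold change 5.71, SE 0.94, adjusted p = 0.0033) and *Hsp26* had 381, 286 and 286 RPKM in PH, against 0.332, 32.7 and 9.32 RPKM in LG (log2 fold change 5.35, SE 0.97, adjusted p = 0.0049). In both, LG replicate 2 was the highest LG sample, and the calls held in 2 of the 6 fits with 1 sample left out. *Hsp27*, of the same gene cluster, had 2201, 1579 and 1336 RPKM in PH, against 96.4, 732 and 173 RPKM in LG and missed the threshold (adjusted p = 0.012 from limma). *Hsp68* had 262, 125 and 245 RPKM in PH, against 19.4, 41.9 and 18.1 RPKM in LG (log2 fold change 2.98, SE 0.38, adjusted p = 0.0011) and held in all 6 fits. These 3 are the calls among 21 tested heat shock genes, whose median was 1.603; without LG replicate 2 the count was 4, and it was 1 without PH replicate 1, PH replicate 3 or LG replicate 3. *Hsp70Aa*, an inducible chaperone gene with near-identical copies, had 178, 3.43 and 75.7 RPKM in PH, against 0.563, 16.9 and 6.55 RPKM in LG, and the groups overlapped. Of 15 tested stress and immediate early genes, 4 rose, among them both AP-1 subunits, *kay* (Fos) with 31.9, 38.6 and 36.6 RPKM in PH, against 14.1, 14.1 and 14.0 RPKM in LG (1.28) and *Jra* (Jun) with 31.7, 36.4 and 47.8 RPKM in PH, against 12.5, 16.5 and 13.5 RPKM in LG (1.38; held in 4 of the 6 fits), and *puc*, the phosphatase induced by JNK signaling, with 49.2, 59.0 and 70.7 RPKM in PH, against 21.1, 33.7 and 21.2 RPKM in LG (1.22; held in 1 of the 6 fits). *Mmp1* was the fourth. *Thor* (4E-BP), a translation inhibitor, fell, with 18.8, 18.8 and 16.5 RPKM in PH, against 41.1, 36.3 and 41.1 RPKM in LG (-1.09; held in 5 of the 6 fits). Without LG replicate 2, 7 stress genes were higher, and without PH replicate 2 or LG replicate 3 the count was 2.

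Among ecdysone response genes, 7 of 23 tested (30.4%) rose and 2 (8.70%) fell, against 7.63% and 6.57% of all genes tested. The 7 include genes that were also counted in other lists or among the largest rises. The median of the list was 0.30 and turned to -0.07 when scaled to total reads. *Eip71CD* had 187, 111 and 55.8 RPKM in PH, against 1.61, 23.6 and 7.85 RPKM in LG (3.68), *Hr4*, a nuclear receptor, had 17.3, 13.9 and 6.80 RPKM in PH, against 0.434, 2.47 and 0.327 RPKM in LG (2.78) and *Eip78C*, another, had 15.9, 11.3 and 5.83 RPKM in PH, against 0, 3.14 and 0.207 RPKM in LG (2.72). In these, as in *Fbp1*, PH replicate 1 was the highest and PH replicate 3 the lowest PH sample, and their calls held in 2 of the 6, 3 of the 6 and 1 of the 6 fits. *Dronc*, the initiator caspase, had 19.3, 19.2 and 22.8 RPKM in PH, against 2.99, 6.39 and 4.67 RPKM in LG (log2 fold change 1.96, SE 0.25, adjusted p = 0.0012). *let-7-C*, the primary transcript of a microRNA cluster, had 1.28, 1.85 and 3.18 RPKM in PH. It had no LG reads, and against the limit of 3 reads its PH level was at least 5.21-fold higher. *ftz-f1*, a nuclear receptor, and *ImpL3*, which encodes lactate dehydrogenase, fell (-1.39 and -1.61). The calls of *let-7-C*, *ftz-f1* and *ImpL3* were lost in each fit with 1 sample left out that could test them. The count of higher ecdysone genes was 3 without PH replicate 1, PH replicate 2 or LG replicate 3 and 4 without PH replicate 3.

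In signaling pathways, called members went in either direction. Of 12 tested JAK/STAT genes, 4 fell: *Stat92E* and *et*, given above, *chinmo*, a BTB zinc finger factor downstream of the pathway, with 0.972, 1.57 and 1.19 RPKM in PH, against 34.8, 17.1 and 33.4 RPKM in LG (log2 fold change -3.66, SE 0.30, adjusted p = 1.9e-04), and *Socs16D* (-1.54, held in 3 of the 6 fits). In the Toll and Imd pathways, 4 of 25 (16%) rose and 2 (8%) fell, against 7.63% and 6.57% of all genes tested. The adaptor *tub* (Tube) had 98.6, 94.5 and 87.3 RPKM in PH, against 18.2, 20.6 and 15.7 RPKM in LG (log2 fold change 2.31, SE 0.16, adjusted p = 1.1e-04), its kinase partner *pll* (Pelle) had 28.8, 24.7 and 22.3 RPKM in PH, against 9.46, 9.06 and 7.62 RPKM in LG (log2 fold change 1.43, SE 0.18, adjusted p = 0.0011), and *imd* and *grass* rose with calls that held in 0 of the 6 and 2 of the 3 fits with 1 sample left out. *PGRP-LB*, an amidase that degrades peptidoglycan and lowers Imd signaling, had 0, 0.307 and 0.146 RPKM in PH, against 10.2, 14.5 and 8.92 RPKM in LG (log2 fold change -3.39, SE 0.26, adjusted p = 1.6e-04), and *spz*, the ligand of Toll, had 45.5, 63.9 and 68.5 RPKM in PH, against 241, 127 and 200.2 RPKM in LG (-1.63; held in 2 of the 6 fits). *Rel*, the NF-κB factor of the Imd pathway, had 34.5, 103 and 160.0 RPKM in PH, against 17.8, 41.1 and 20.9 RPKM in LG and did not pass (adjusted p = 0.043 from limma). The count of higher genes in this list was 2 without LG replicate 1, PH replicate 2 or PH replicate 3, and 1 when scaled to total reads. Of 21 antimicrobial peptide genes found, 1 could be tested and it did not pass, and 7 are listed at 0 in all 6 samples. In the Notch pathway the γ-secretase subunits *pen-2* and *nct* rose (1.62 and 1.01) and *N*, its coactivator *mam* and the target *E(spl)mbeta-HLH* fell (-1.09, -1.46 and -1.65), of 12 tested, with calls that held in 1 to 5 of the 6 fits. The ETS factors of receptor tyrosine kinase signaling went opposite ways: the repressor *aop* (Yan) had 37.9, 37.0 and 25.5 RPKM in PH, against 11.1, 10.7 and 9.19 RPKM in LG (log2 fold change 1.59, SE 0.20, adjusted p = 0.0011) and the activator *pnt* had 22.8, 26.5 and 18.5 RPKM in PH, against 43.4, 53.7 and 51.0 RPKM in LG (log2 fold change -1.10, SE 0.18, adjusted p = 0.0031; held in 3 of the 6 fits). *Pvr*, the PDGF/VEGF receptor of hemocytes, had 38.2, 41.6 and 49.5 RPKM in PH, against 37.6, 51.4 and 42.4 RPKM in LG (log2 fold change -0.02, SE 0.18), and the groups overlapped. Among 17 tested Dpp and activin genes, *dally*, the secreted inhibitor *sog* (-1.75) and the inhibitory Smad *Dad* (-1.501, held in 2 of the 6 fits) fell, the call of *sog* being lost in each fit that left out a PH sample, and the ligand *dpp* had 11.4, 7.98 and 5.83 RPKM in PH, against 1.67, 3.61 and 2.82 RPKM in LG, with 1.34 that did not pass (adjusted p = 0.012 from limma).

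Of 84 tested ribosomal protein genes, 81 had a log2 fold change below 0, with a median of -0.33, and in 47 every PH sample lay below every LG sample. Over all 7088 genes tested, 3480 lay below 0 and in 1634 (23.1%) every PH sample lay below every LG sample. Scaled to total reads the median was -0.71, where that of all genes was -0.30, and 4 were lower. By the call rule 1 (1.19%, against 6.57% lower over all genes tested) was called. This was *RpL24-like*, which acts in ribosome assembly, with 27.7, 24.4 and 22.5 RPKM in PH, against 52.9, 57.2 and 55.1 RPKM in LG (-1.12). *pAbp*, the poly(A)-binding protein, was among the 5 most abundant of the genes lower in PH, with 152, 114.5 and 68.2 RPKM in PH, against 465, 511 and 619 RPKM in LG (log2 fold change -2.31, SE 0.28, adjusted p = 9.4e-04), together with *Hml*, *Tep4*, *Ance* and *Ppn*. Of 13 glycolysis genes only *ImpL3* was called, and of 18 TCA cycle genes only *Mdh1*, at 1.0002, with a call that held in 1 of the 6 fits. These are 7.69% lower and 5.56% higher, near the 6.57% and 7.63% over all genes tested.

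**Figure D5:**
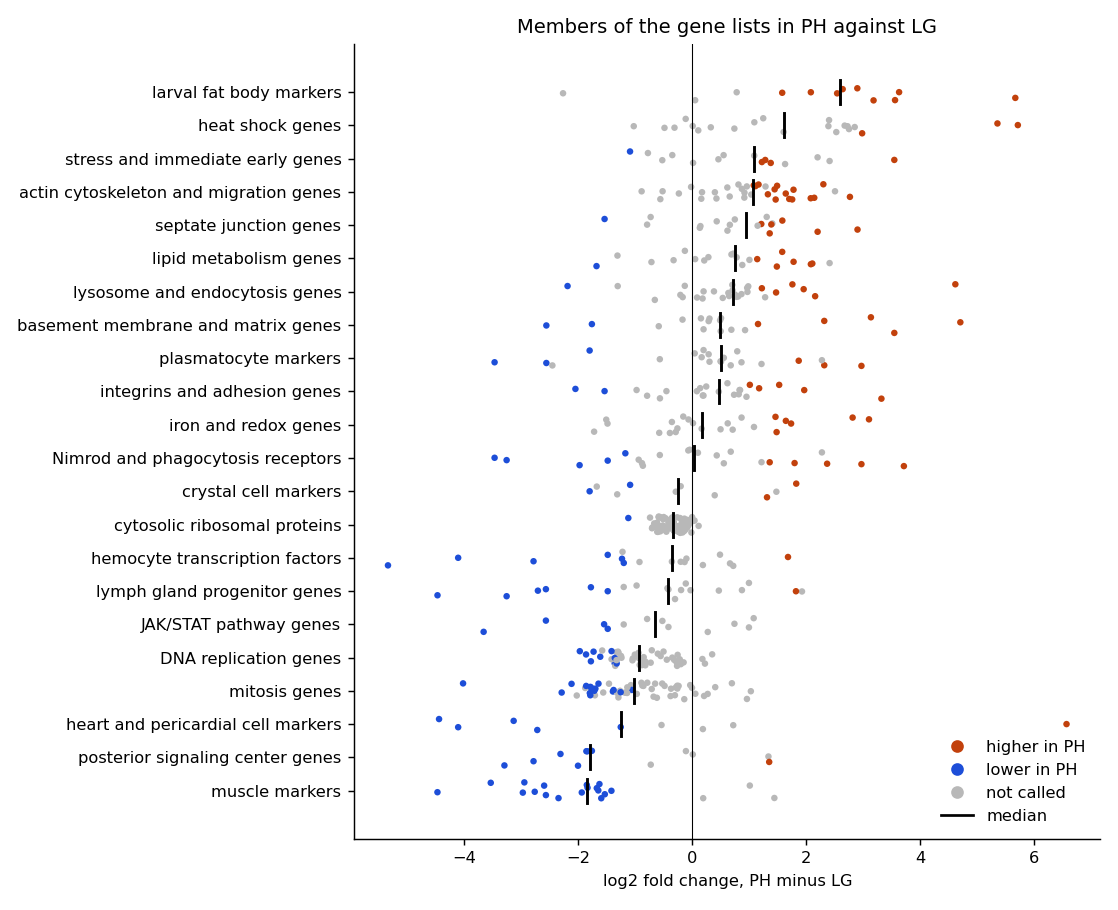
Log2 fold change of PH against LG for the tested members of 22 gene lists, 1 point per gene (orange higher in PH, blue lower in PH, grey not called) with a black bar at the list's median. Medians run between -1.84 (muscle) and 2.59 (larval fat body), and 84 ribosomal protein genes cluster around -0.33.

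The other large falls in PH were in genes outside these lists. *GstD3*, of the glutathione S-transferase D cluster, had 0, 2.19 and 1.39 RPKM in PH, against 141, 52.2 and 134 RPKM in LG (log2 fold change -5.68, SE 0.50, adjusted p = 2.7e-04); *GstD1*, the most abundant of that cluster, had 2325, 2056 and 1943 RPKM in PH, against 2078, 3748 and 2690.2 RPKM in LG and was not called, and near-identical stretches among these genes leave their counts uncertain. *CG31827* had 1.16, 1.72 and 2.46 RPKM in PH, against 127, 35.1 and 102 RPKM in LG, and *CG18478* had 1.32, 2.68 and 2.46 RPKM in PH, against 125, 29.9 and 96.3 RPKM in LG. They have the same exon length of 950 bp and nearly equal values, so that reads may be shared between them. *GILT3*, of a family of lysosomal thiol reductases, had 6.10, 2.82 and 2.69 RPKM in PH, against 71.5, 60.2 and 70.6 RPKM in LG (log2 fold change -3.88, SE 0.27, adjusted p = 1.2e-04), and *CG31431* had 4.21, 4.86 and 5.41 RPKM in PH, against 104, 83.6 and 96.5 RPKM in LG (log2 fold change -4.04, SE 0.17, adjusted p = 1.9e-05). *CG30457* had no reads in PH, against 9.34, 10.2 and 32.9 RPKM in LG. By the LG mean, which replicate 3 raised, it was at least 14.5-fold lower in PH against the limit of 3 reads. *CG15115* and *CG33461* had log2 fold changes of -3.95 and -3.82.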

How the data were processed

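The authors deposited RPKM values, without counts, for adult and larval samples; per the labels and the paper's methods, the authors' reads were trimmed with Trimmomatic 0.32, aligned with HISAT2 2.1.0 (TopHat is also listed), counted with HTSeq 0.5.4p5 and turned into RPKM with Cufflinks 2.2.1, and the authors used DESeq2 1.2.8 for their comparisons. The builds listed are dm6 and BDGP5. Whether counting used strand is not given in the sources used here. The labels name the RNeasy Plus Micro kit and NextSeq, the methods another RNA kit and device.

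The methods state that the great majority of PH cells were hemocytes by a *Pxn* reporter. They add that no fat body cells were seen under the microscope. The groups came from the labels. Genes were matched to the Ensembl annotation of BDGP6.54 (98.9%, 17216 by identifier and 85 by symbol), from which exon lengths and overlaps of genes were taken. RPKM times exon length gave whole reads within 0.02 for 97.8 to 98.0% of values in a library, and these are the recovered reads. The library totals behind the RPKM, divided by each library's median-of-ratios size factor, were nearly equal, at 5178020 to 5288530. They did not follow recovered reads: the total was 3849900 against 4999411 in PH replicate 3, and 9033160 against 6779942 in LG replicate 3. Limits for genes at 0 are 3 recovered reads in the shallowest library of the group and cover counting error only. They depend on the recovered reads, which are fewer than the mapped reads stated in the paper. Folds against these limits use the mean of the other group. At 1 RPKM a gene with 1 kb of exon had 3.85 to 6.36 recovered reads in PH and 3.03 to 9.03 in LG.

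limma 3.58.1 in R 4.3.3 (lmFit, eBayes with trend) was run on log2(RPKM + 1) of the 6 samples over the 7088 genes, two-sided, with Benjamini-Hochberg adjustment, and called at adjusted p below 0.01 and log2 fold change beyond 1. The pseudocount of 1 understates changes of low genes. The procedure was tested on simulated data. Lists (40, written from general knowledge; 26 of 968 symbols not matched) are described by counts and medians, with no list test. Members, lists and alternatives were chosen with earlier results of these data known. Genes named are the 15 largest rises and falls among called genes with non-overlapping groups and a mean of at least 10 RPKM in the higher group (histones and rRNA left out), the 5 most expressed called genes per direction, list members where needed, and genes overlapping these; 1 gene that the rule names is not reported here. Python 3.11.15, pandas 2.3.3, numpy 2.4.6 and matplotlib 3.10.9 were used for counts and plots. Alternatives were pseudocounts, filters, scalings, voom on recovered reads, array weights, a replicate block, another threshold and each sample left out.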

Additional observations from a re-analysis of the deposited data

How the results depend on the processing

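Of 541 genes higher and 466 lower in PH, the counts were 363 to 771 higher and 252 to 761 lower under the alternatives that kept all samples and the scaling. Lower genes numbered 252 with a pseudocount of 5 RPKM, 296 with no filter and 761 with array weights; scaling to total recovered reads gave 320 higher and 733 lower. With 1 sample left out, higher genes numbered 217 (without PH replicate 2) to 670 (without LG replicate 2) and lower genes 166 (without LG replicate 3) to 502 (without LG replicate 2); without PH replicate 1 the counts were 242 and 221, without PH replicate 2 they were 217 and 214, without LG replicate 1 they were 430 and 263, and without LG replicate 3 they were 291 and 166. Without PH replicate 3 the lower count was 240, and the higher count lay between those without PH replicate 1 and without LG replicate 3. Fewer samples were fitted in these, and genes expressed in 1 group alone could no longer pass the limit of 3 samples once a sample of that group was left out. No called gene reversed its sign, which leaving out a sample could not have done, because the groups of called genes did not overlap. Same-numbered PH and LG samples showed no shared deviation over genes (r = -0.13, 0.06 and 0.05 for replicates 1, 2 and 3). These values cannot show whether same-numbered samples were handled together, which the labels do not give. With the replicate number as a block, 448 genes were higher and 354 lower. Voom on recovered reads gave 669 and 595. Array weights gave LG replicate 2 the lowest weight, 0.286, and LG replicate 3 the highest, 4.04. LG replicate 2 has the fewest recovered reads and so limits the low genes most.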
